A study of Mus musculus with 9 samples.

Results

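The brain transports its lipids in lipoproteins of its own, and 9 genes of that transport system were examined by RNA-seq in whole brains of 5 young and 4 old mice. The genes were selected by symbol. They code for the secreted carriers apolipoprotein D (Apod), apolipoprotein E (Apoe), apolipoprotein C1 (Apoc1) and clusterin (Clu), for the lipoprotein-modifying proteins Lcat and Pltp, and for the receptors Lrp1, Lrp8 and Vldlr. All 9 were found among the 49315 genes of the count table, and all 9 were among the 18492 genes with enough counts to be tested.

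All mice were wild-type male C57BL/6J animals fed without restriction. The young mice were labelled as 3 months old (the study's methods give 3 or 4 months) and the old mice as 33 months old. RNA was extracted from whole tissue with Qiazol and selected for polyadenylated transcripts, so each value is an average over all cell types of the brain, and fewer cells of a type and less RNA per cell cannot be told apart. An old mouse with replicate number 2 was not analysed here.

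Plasma lipoproteins hardly cross the blood-brain barrier. Within the brain, astrocytes and, to a lesser degree, microglia secrete lipid-poor apolipoproteins, the transporters Abca1 and Abcg1 load them with cholesterol and phospholipid, Lcat esterifies the cholesterol, and neurons and glia take the particles up through receptors of the LDL receptor family. Apoe and Clu are also known for the alleles of their human counterparts that shift the risk of Alzheimer's disease, and Lrp8 and Vldlr double as receptors for Reelin, the secreted protein that positions neurons during development and acts at adult synapses.

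To show the sequence context of genes with opposite changes, the 200 bases before the annotated start of Apod and Apoe, which were higher in the old brains, and of Vldlr, which was lower, are given from RefSeq (GRCm38.p6), each 5′ to 3′ on the strand of its gene. They lie at chr16:31314809-31315008 (minus strand), chr7:19699189-19699388 (minus strand) and chr19:27216284-27216483 (plus strand).
Apod: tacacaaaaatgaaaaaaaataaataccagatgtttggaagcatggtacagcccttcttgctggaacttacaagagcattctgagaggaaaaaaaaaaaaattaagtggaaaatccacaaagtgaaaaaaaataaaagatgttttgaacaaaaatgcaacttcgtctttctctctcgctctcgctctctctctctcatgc
Apoe: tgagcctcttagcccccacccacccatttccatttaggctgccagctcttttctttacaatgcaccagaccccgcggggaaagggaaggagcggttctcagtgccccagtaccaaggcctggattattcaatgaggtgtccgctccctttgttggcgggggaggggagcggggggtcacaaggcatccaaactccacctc
Vldlr: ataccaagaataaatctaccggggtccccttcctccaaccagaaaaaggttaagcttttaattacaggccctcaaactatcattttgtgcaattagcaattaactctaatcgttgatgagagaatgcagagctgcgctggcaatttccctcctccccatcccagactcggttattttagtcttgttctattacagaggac
Within the 250 bases before the start, GC content was 36.4% for Apod, 57.2% for Apoe and 41.6% for Vldlr. This window was searched on both strands for 4 motifs, of which none contains another, and none was found in any of the 3 genes, which is why no base is in capitals. The motif TATAAA, the TATA box, occurs in 12.4% of 32851 mouse promoter windows of the same length. The motif CCAAT occurs in 33.8% of them. The motif GGGCGG, bound by Sp1, occurs in 32.7%. The motif AGGTCA, an element of many nuclear receptor sites, occurs in 14.0%. No measurement of these promoters was made, and the absence of these letters says nothing about the factors that bind there. Of the 9 genes, 7 had an entry in the promoter table, and among the other 4 CCAAT was found before Lcat and Pltp and GGGCGG before Pltp and Lrp1.

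Total counts per library ranged from 14229259 to 21150439, with medians of 18219839 in young and 17689652 in old mice, and the biological coefficient of variation across genes was 6.71%. Any pair of libraries from mice of the same age differed beyond sampling noise. Marker genes of astrocytes, microglia, oligodendrocytes and neurons were detected in every library. Several libraries stood apart. Young replicate 4 had a summed level of 8 reactive astrocyte markers of 749 CPM (counts scaled to library size), where the remaining young mice had 297 to 341 and old mice 900.1 to 1184, and of 10 activated microglia markers of 454 CPM, where they had 266 to 292 and 370 to 478. Most of the microglia sum came from 1 gene, Ctsd, with means of 196 CPM in young and 262 in old mice. Ctsd did not pass edgeR's test (adjusted p = 0.200). Cerebellar markers (6 genes) were lowest in old replicates 3 and 5, at 525 and 635 CPM against 761 to 980 in the young and 862 and 861 in old replicates 1 and 4, and none of the 6 passed edgeR's test between the ages (1 at an unadjusted p under 0.05, 1 by DESeq2). Olfactory bulb markers (5 genes) were highest in old replicate 5 and young replicate 2, at 135 and 63.6 CPM, against 14.7 to 48.4 in the others. Hemoglobin and other blood genes (6 genes) were higher in all 4 old libraries, at 129 to 424 CPM against 86.9 to 117.

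Of the 9 genes, 3 rose and 1 fell in the old brains. The 3 that rose were all secreted carriers, Apod (2.43-fold), Apoc1 (2.16-fold) and Apoe (1.38-fold), and the 1 that fell was the receptor Vldlr, by 10.9%. The remaining carrier, both lipoprotein-modifying genes and the other 2 receptors did not pass an adjusted p of 0.05 in edgeR's quasi-likelihood test. Over all 18492 genes the same test called 2031, or 11.0%, of which 1126 (6.09%) were higher and 905 (4.89%) lower in old mice. Apod and Apoc1 also passed an absolute log2 fold change of 0.58, as did 2.50% of all genes. The median log2 fold change of the 9 genes was 0.017, against -9.2e-05 over all genes. In CPM, the ranges of young and old mice did not overlap for 4 of the 9 genes, the same 4 that passed the test, and for 12.6% of all genes.

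**Figure D1:**
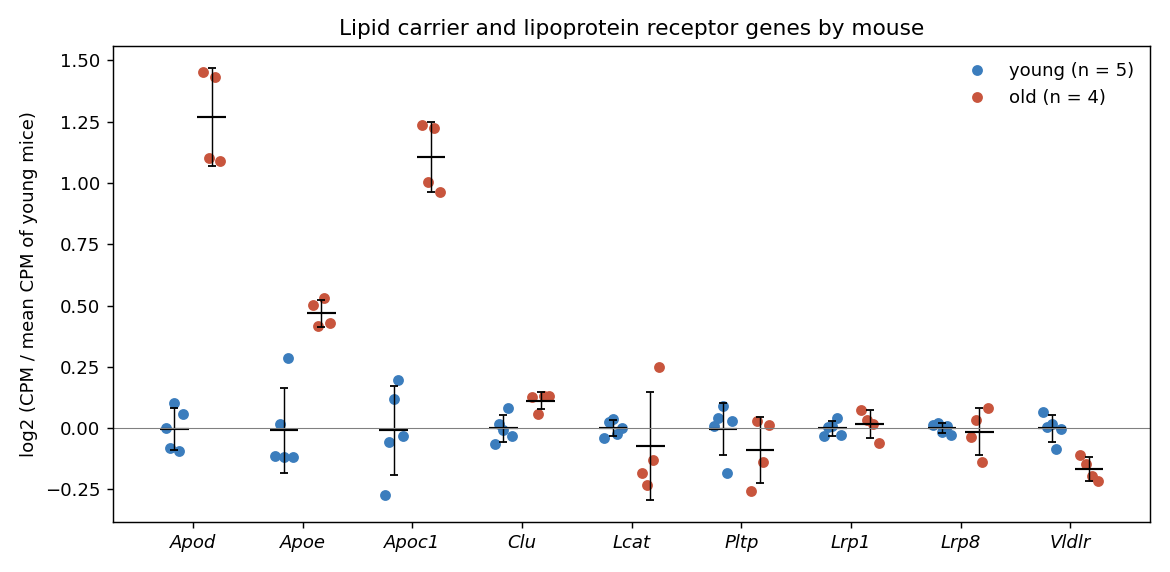
Level of each gene in each mouse, as the log2 ratio of its CPM to the mean CPM of the 5 young mice. Points are mice, horizontal bars are means and error bars are SD. Old mice (n = 4) lie above all young mice (n = 5) for Apod, Apoe and Apoc1 and below all of them for Vldlr, and the ages overlap for the other 5 genes.

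Apod showed the largest change of the 9. Apolipoprotein D is a small lipid-binding protein of the lipocalin family, secreted in the brain by glia and cells around blood vessels and known to limit lipid peroxidation. The gene lies on chromosome 16 (GRCm38, 31296192 to 31314808, minus strand). Its level was 161, 152, 173, 151 and 168 CPM in young replicates 1 to 5, and 440.2, 345, 434 and 342 CPM in old replicates 1, 3, 4 and 5. The lowest old mouse was thus far above the highest young mouse, and the old mice split into a higher pair (replicates 1 and 4) and a lower pair (replicates 3 and 5). The mean rose from 161 ± 9.62 (SD, n = 5) to 390 ± 54.2 CPM (SD, n = 4), a log2 fold change of 1.28 (SE 0.0878, 95% interval 1.08 to 1.48, edgeR adjusted p = 3.92e-05). When each mouse was left out in turn the log2 fold change stayed between 1.22 and 1.34.

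Markers of the cells known to make Apod, and of dissected regions, were set beside it. The higher pair of old mice was also the pair with more cerebellar marker RNA and more blood RNA (264.5 and 424 CPM, against 129 and 171 in replicates 3 and 5). Summed levels of 8 mature oligodendrocyte markers (6269 to 7333 CPM in young, 6827 to 8414 in old), 8 mural cell markers (219 to 251 and 232 to 273) and 8 fibroblast and meningeal markers (168 to 197 and 148 to 253) overlapped between the ages. Those of 8 endothelial markers did not overlap, at 240 to 255 CPM in young and 275 to 312 in old mice, with 4 of the 8 rising and the 8 log2 fold changes spread from -0.18 to 0.94. The 8 reactive astrocyte markers, of which 5 rose, did not overlap either (297 to 749 CPM in young, 900.1 to 1184 in old), whereas the 8 general astrocyte markers did. Over all genes, 6.09% rose. Gfap had the highest mean of the reactive markers in both ages (268 and 566 CPM). It overlapped between the ages (191 to 514 and 434 to 638 CPM) and did not pass (edgeR adjusted p = 0.0911). The part of these cell types and regions in the rise of Apod was not tested.

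Apoe was the most abundant of the 9 transcripts. Apolipoprotein E is the main lipid carrier of the brain and the main ligand of its lipoprotein receptors. The gene lies on chromosome 7 (19696109 to 19699188, minus strand). In young replicates 1 to 5 it reached 1322, 1446, 1315, 1739.5 and 1317 CPM, and in old replicates 1, 3, 4 and 5 it reached 2019.8, 1906, 2062 and 1923 CPM. Young replicate 4 stood apart from the other young mice and closest to the old ones, but still below every old mouse. The mean rose from 1428 ± 183 (SD, n = 5) to 1978 ± 75.4 CPM (SD, n = 4), a log2 fold change of 0.47 (SE 0.0799, 95% interval 0.29 to 0.65, edgeR adjusted p = 0.00468). On the log2(TPM + 1) scale, where the median of all genes shifted by -0.14, limma gave a difference of 0.31 (adjusted p = 0.491). The ages overlapped there, at 1381 to 2096 TPM in young and 1827 to 2392 TPM in old mice. The overlap came from young replicate 3 (2096 TPM), since the other young mice lay at 1381 to 1777 TPM. Among the young mice, replicate 3 had the highest TPM for each of the 9 genes, but the lowest CPM for Apoe. The cause of this difference between scales was not tested. Apoe took 0.131 to 0.170% of all counts in young and 0.189 to 0.206% in old libraries, and the 9 genes together took 0.314 to 0.356% and 0.396 to 0.426%.

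Young replicate 4 was also the young mouse with the most reactive astrocyte and activated microglia marker RNA. Without this mouse the log2 fold change of Apoe was 0.55, with an edgeR adjusted p of 4.1e-07. Over all fits that left out 1 mouse it lay between 0.44 and 0.55, with an edgeR adjusted p of 0.0222 or less. Of the 8 general astrocyte markers none passed edgeR's test (3 at an unadjusted p under 0.05, 2 by DESeq2), and their summed level overlapped between the ages (4165 to 4545 CPM in young, 4238 to 4433 in old). Of the 8 reactive astrocyte markers 5 rose, and of the 10 activated microglia markers 3 rose, against 6.09% of all genes. The 8 homeostatic microglia markers, of which 1 rose, summed to 222 to 251 CPM in the other young mice, 312 in young replicate 4 and 294 to 351 in the old mice. Their part in the rise of Apoe was not tested.

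**Figure D2:**
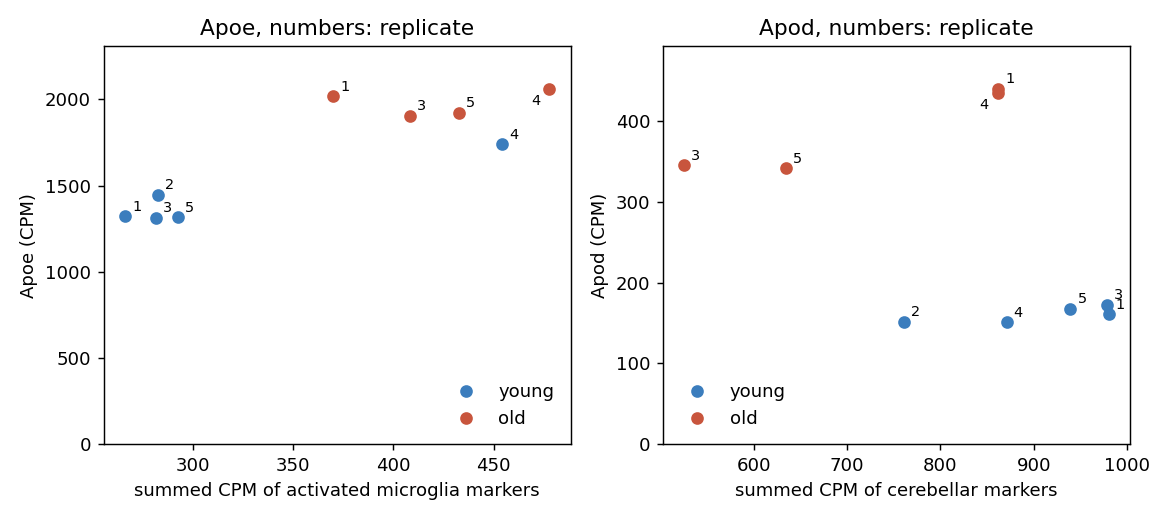
Left, Apoe in CPM against the summed CPM of 10 activated microglia markers, most of which came from Ctsd. Right, Apod in CPM against the summed CPM of 6 cerebellar markers. Points are mice, numbered by replicate. Young replicate 4 (454 CPM of microglia markers, 1739.5 CPM of Apoe) lies near the old mice on the left, and old replicates 1 and 4 lie together above old replicates 3 and 5 on the right.

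Apoc1 was the rarest of the 9 transcripts. Apolipoprotein C1 is a small apolipoprotein that inhibits lipid transfer and the uptake of Apoe-bearing particles, and its gene is the neighbour of Apoe on the same strand of chromosome 7 (19689481 to 19692660). It received 10, 11, 10, 15 and 10 counts in young replicates 1 to 5 and 28, 18, 27 and 21 counts in old replicates 1, 3, 4 and 5. At this depth a single library gives only a rough level, but no young library reached the count of any old library. In CPM the mean rose from 0.632 ± 0.0780 (SD, n = 5) to 1.37 ± 0.134 (SD, n = 4), a log2 fold change of 1.11 (SE 0.224, 95% interval 0.64 to 1.58, edgeR adjusted p = 0.00426). The wide interval allows anything from a 1.56-fold to a 3.00-fold rise. Old replicates 1 and 4 (1.49 and 1.48 CPM) lay above replicates 3 and 5 (1.27 and 1.23 CPM), as for Apod and Apoe. With so few counts the order of single libraries is uncertain for Apoc1.

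To ask whether the neighbours Apoc1 and Apoe rose to the same extent, the log2 ratio of their counts was compared between the ages. It was -11.08 ± 0.165 (SD, n = 5) in young and -10.47 ± 0.0871 (SD, n = 4) in old mice, a difference of 0.61 (two-sided exact permutation p = 0.00794, the smallest that 126 arrangements allow, and 0.0159 after Benjamini-Hochberg adjustment over the 2 ratios tested). Every old mouse had a higher ratio than every young mouse. Tomm40, the gene on the other side of Apoe, codes for a mitochondrial import channel and did not pass the test (log2 fold change -0.083, SE 0.0476, edgeR adjusted p = 0.297).

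Clusterin, the fourth carrier, is an extracellular chaperone that also travels on lipoproteins, and its gene lies on chromosome 14 (65968483 to 65981547, plus strand). It was measured at 564, 598, 588, 626 and 578 CPM in young replicates 1 to 5 and at 645, 615, 646 and 647 CPM in old replicates 1, 3, 4 and 5. Of the old mice, 3 lay above every young mouse and replicate 3 lay below young replicate 4. The means were 591 ± 23.2 (SD, n = 5) and 639 ± 15.7 CPM (SD, n = 4), and the log2 fold change was 0.11 (SE 0.0371, 95% interval 0.034 to 0.19, edgeR adjusted p = 0.0604). This gene lay at the threshold, since DESeq2's Wald test gave an adjusted p of 0.0287 and edgeR without young replicate 4 gave 0.0266 (log2 fold change 0.13).

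Neither of the 2 lipoprotein-modifying genes passed edgeR's test, and 0 did so at an unadjusted p under 0.05 or by DESeq2. Lcat codes for the enzyme that esterifies cholesterol on lipoproteins (chromosome 8, 105939551 to 105943382, minus strand). It ranged narrowly from 22.0 to 23.2 CPM in young mice, whereas old replicates 1, 3 and 4 lay below every young mouse at 19.9, 19.3 and 20.7 CPM and old replicate 5 lay above every young mouse at 26.9 CPM. The log2 fold change was -0.058 (SE 0.0822, 95% interval -0.23 to 0.12, edgeR adjusted p = 0.708), and -0.18 without old replicate 5 (edgeR adjusted p = 0.0852). Old replicate 5 was also the library with the most olfactory bulb marker RNA, whose part in the level of Lcat was not tested.

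Pltp codes for the phospholipid transfer protein (chromosome 2, 164839518 to 164857711, minus strand). It ranged from 59.8 to 72.4 CPM in young and from 56.9 to 69.5 CPM in old mice, and the log2 fold change was -0.084 (SE 0.0643, 95% interval -0.22 to 0.053, edgeR adjusted p = 0.452). Pltp shares 495 exon bases with Ctsa on the opposite strand, which codes for a lysosomal carboxypeptidase and rose (log2 fold change 0.18, edgeR adjusted p = 0.0189). Whether the counting used strand is not given for these libraries, so reads from the shared bases may not be told apart. Genes on the opposite strand of Lcat, Lrp1 and Lrp8 share no exon bases with them.

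Among the receptors, Vldlr fell and Lrp1 and Lrp8 did not pass the test. Vldlr binds Apoe-bearing particles and Reelin, and its gene lies on chromosome 19 (27216484 to 27254231, plus strand). It was measured at 108, 103, 104, 96.9 and 103 CPM in young replicates 1 to 5 and at 95.3, 92.9, 89.8 and 88.6 CPM in old replicates 1, 3, 4 and 5. The change was small, but every old mouse lay below every young mouse. The mean went from 103 ± 3.89 (SD, n = 5) to 91.6 ± 3.03 CPM (SD, n = 4), a log2 fold change of -0.17 (SE 0.0397, 95% interval -0.25 to -0.082, edgeR adjusted p = 0.0120). The gene kept an edgeR adjusted p of 0.0439 or less when each mouse was left out in turn. On the log2(TPM + 1) scale the difference was -0.32 and did not pass (limma adjusted p = 0.391). Summed levels of 8 neuron markers also lay lower in old (5877 to 6076 CPM) than in young mice (6104 to 6475 CPM). Of these 8, 4 passed the test downward, against 4.89% of all genes. The sum of 6 oligodendrocyte precursor markers was lower too (134 to 143 against 158 to 167 CPM), with 3 passing. The largest fall of the 6 was that of Gpr17, with means of 38.8 CPM in young and 21.9 in old mice. Pdgfra (log2 fold change 0.051), Cspg4 (-0.11) and Sox6 (-0.15) did not pass. The part of these cell types in the fall of Vldlr was not tested.

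Lrp8, the other Reelin receptor, lies on chromosome 4 (107802261 to 107876840, plus strand). Its mean was 107 ± 1.53 CPM (SD, n = 5) in young and 107 ± 7.02 CPM (SD, n = 4) in old mice. The young mice lay within 105 to 109 CPM, while 2 old mice lay above and 2 below all of them, from 97.6 to 114 CPM. The log2 fold change was -0.013 (SE 0.0424, 95% interval -0.10 to 0.076, edgeR adjusted p = 0.885), an interval of -6.86% to 5.44% of the young level.

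Since Vldlr and Lrp8 share Reelin as a ligand, their balance was compared. The log2 ratio of Vldlr to Lrp8 counts was -0.063 ± 0.0577 (SD, n = 5) in young and -0.21 ± 0.112 (SD, n = 4) in old mice, a difference of -0.15 (two-sided exact permutation p = 0.0317, adjusted p = 0.0317 over the 2 ratios). The ranges overlapped, with young replicate 4 at -0.16 and old replicates 1 and 4 at -0.14 and -0.12. The call was lost when any of 6 of the 9 mice was left out, with a difference between -0.18 and -0.10.

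Lrp1 is a large endocytic receptor for Apoe and many other ligands on neurons, glia and vessel cells (chromosome 10, 127538161 to 127621148, minus strand). It had the highest level per length of the 3 receptors, and lay at 793 to 834 CPM in young and 777 to 853 CPM in old mice, with means of 810.0 ± 16.9 (SD, n = 5) and 819 ± 31.8 CPM (SD, n = 4). The log2 fold change was 0.017 (SE 0.0361, 95% interval -0.059 to 0.093, edgeR adjusted p = 0.820). Of the old mice, 1 lay above and 1 below every young mouse.

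**Figure D3:**
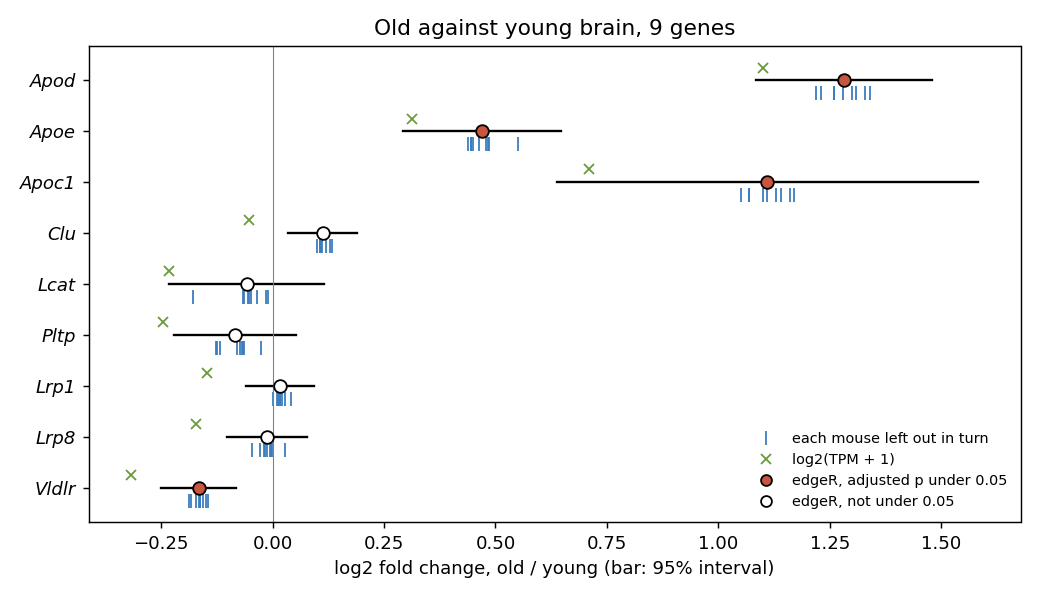
Log2 fold change between old (n = 4) and young (n = 5) mice for each gene. Circles and bars give edgeR's estimate with its 95% interval (filled where the adjusted p was under 0.05), blue ticks the estimate with each mouse left out in turn, and green crosses the difference on the log2(TPM + 1) scale. The intervals of Apod, Apoe, Apoc1 and Clu lie to the right of 0 and that of Vldlr to the left, and those of the other 4 genes cross 0. Clu did not pass after adjustment. The crosses lie to the left of the circles for all 9 genes.

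Levels were compared between genes only as TPM (transcripts scaled to the library total), which takes gene length into account. Apoe led at 1734 ± 255 TPM (SD, n = 5) in young and 2145 ± 234 TPM (SD, n = 4) in old mice, and ranked 14 among all genes by mean TPM. Clu followed at 450 and 431 TPM on average, then Apod at 165 and 352, Lrp1 at 120 and 107, Pltp at 70.1 and 57.8, and Lcat at 44.3 and 37.6 TPM. In every mouse each of these genes lay above the next. The ranges of Apod and Clu were apart in young mice (128 to 229 and 377 to 583 TPM) but overlapped in old mice (275 to 432 and 367 to 475 TPM).

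The 2 Reelin receptors came next and could not be ordered in young mice, where Lrp8 lay at 22.4 to 34.4 and Vldlr at 21.02 to 35.2 TPM. Lrp8 exceeded Vldlr in 2 of 5 young and in 4 of 4 old mice. Apoc1 was last, at 2.23 ± 0.527 TPM (SD, n = 5) in young and 4.26 ± 0.664 TPM (SD, n = 4) in old mice.

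**Figure D4:**
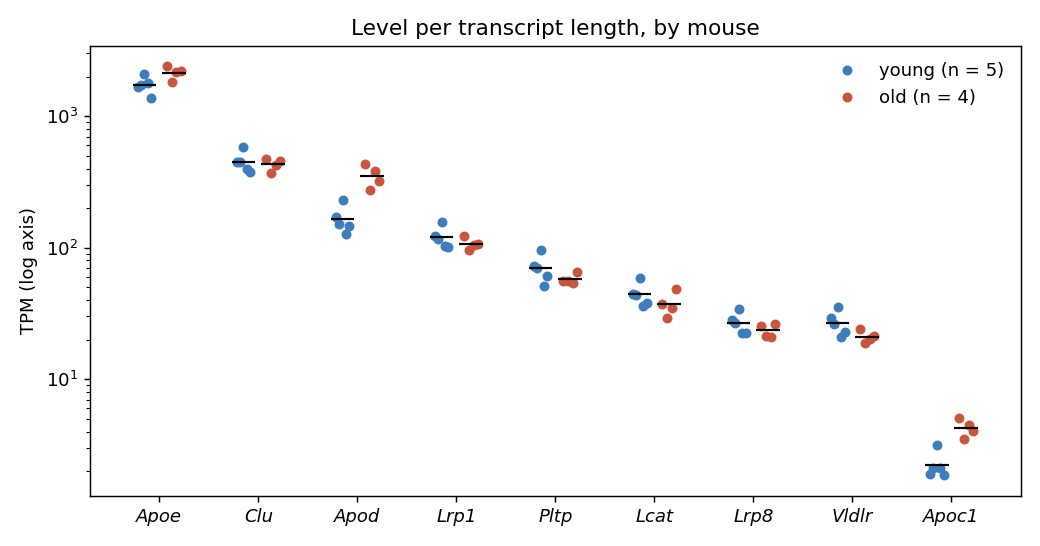
TPM of each gene on a log axis, genes ordered by mean TPM, with a point for each mouse and a bar for the mean of each age. Apoe (1381 to 2392 TPM) is far above Apoc1 (1.86 to 5.06 TPM). Apod moves toward Clu in the old mice, and the points of Lrp8 and Vldlr overlap.

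The other genes of lipoprotein handling were examined as 7 lists of 83 genes in all, of which 59 had enough counts to be tested. Of these 59, 8 rose and 2 fell, or 16.9% against 11.0% of all genes, and their median log2 fold change was 0.049. With each mouse left out in turn, 6 to 10 rose and 0 to 2 fell. Without the filter on low counts, 13 of 82 list genes rose and 4 fell, where 2802 of 35028 genes were called. The 8 that rose among the 59 include Msr1, which had enough counts to be tested only through the old mice. These counts describe the lists, with no test of the lists themselves.

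Transporters that load lipid onto apolipoproteins, and genes of cholesterol movement and sensing, made up the largest list. Of its 21 tested genes 5 rose and none fell, where 6.09% of all genes rose and 4.89% fell. Abca1, which exports cholesterol and phospholipid to lipid-poor apolipoproteins, lay at 57.2 to 64.2 CPM in young and 73.7 to 83.6 CPM in old mice, with no overlap (log2 fold change 0.39, SE 0.0470, edgeR adjusted p = 5.92e-05). Srebf1, a transcription factor of lipid synthesis, rose by 0.38 on the log2 scale. Abcg1, which loads lipid onto particles already formed, rose by 0.17. Npc1 and Npc2, which move cholesterol out of lysosomes, rose by 0.22 and 0.18, with the call of Npc2 lost without old replicate 4 or 5. None of these 5 passed on the TPM scales, where the median of all genes was shifted down by 0.14 or more and the lowest differences were -0.0011 for Abcg1, 0.016 for Npc2 and 0.054 for Npc1. The remaining 16 genes, with log2 fold changes of -0.14 to 0.35, did not pass the test. They include Srebf2 (-0.017), Cyp46a1 (-0.091), the brain's cholesterol 24-hydroxylase, and Abcg4 (-0.14).

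Of 12 other genes of the LDL receptor family, 2 fell and none rose in edgeR's test (5 at an unadjusted p under 0.05, 3 by DESeq2). Over all genes, 4.89% fell and 6.09% rose. Lrp3 and the sorting receptor Sorl1 fell by 0.15 and 0.14, each with the call lost when any of several mice was left out. The call of Sorl1 was also lost in edgeR without robust shrinkage. The remaining 10 ranged from -0.20 to 0.23, among them Lrp11 (-0.095, with no overlap between the ages), Lrp6 (0.069) and Lrp1b (-0.025). The highest was Lrp5 (0.23, edgeR adjusted p = 0.0511). It lay just short of the threshold, with every old mouse above every young mouse.

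Of 8 tested scavenger and other lipoprotein receptors, 3 passed the test upward and none downward, against 6.09% and 4.89% of all genes. Of the 3, 1 was Msr1. Msr1, a macrophage scavenger receptor, lay at 0 to 0.386 CPM in young and 0.635 to 1.49 CPM in old mice. The filter on low counts lay at 0.549 CPM, so this gene was tested only because of the group in which it was higher. Its log2 fold change was 1.97 (SE 0.479, edgeR adjusted p = 0.0139). The gene was not called without old replicate 1, in DESeq2 or in limma on log2(TPM + 1). Stab1, a scavenger receptor of macrophages and vessels, rose by 0.31, a call lost without old replicate 5. Scarb2, a lysosomal membrane protein, rose by 0.12, a call lost when any of several mice was left out, and was at -0.046 on a TPM scale, where the median of all genes lay at -0.14 or lower. Trem2, a microglial receptor that binds lipids and Apoe, had a log2 fold change of 0.89 but did not pass (SE 0.326, edgeR adjusted p = 0.136), with an SD among young mice of 5.10 CPM around a mean of 9.45. Sort1 (0.055) and Scarb1 (-0.071) did not pass either.

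None of 6 receptor chaperones and regulators passed edgeR's test (1 at an unadjusted p under 0.05, 0 by DESeq2), among them Lrpap1 (-0.021), the chaperone of the receptor family, Snx17 (0.0042) and Mesd (-0.12). None of 8 genes of Reelin signalling passed either (2 at an unadjusted p under 0.05, 0 by DESeq2), including Reln itself (0.023), Dab2ip (-0.024) and the adaptor Crk (0.0039), and their log2 fold changes ranged from -0.024 to 0.17. Transcripts of plasma apolipoproteins were scarce. Of 11 such genes only Apoa2 was tested (log2 fold change -0.26, edgeR adjusted p = 0.684), and the other 10 had at most 14 counts in any library. Apoc2 and Apoc4, which lie beside Apoc1, overlap the gene Gm44805 on the same strand, so their counts are uncertain. Of 14 apolipoprotein L and related genes 3 were tested and none passed (0 at an unadjusted p under 0.05, 0 by DESeq2), namely Apold1 (0.019), Apol8 (0.18) and Apol10b (0.42). The other 11 lay under the filter, with at most 48 counts in any library. Of these, Apol9a (0 to 0.221 CPM in young, 0.235 to 0.425 in old) and Apol9b (0 to 0.157 and 0.319 to 0.564) did not overlap between the ages. Both had at most 8 counts per library.

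**Figure D5:**
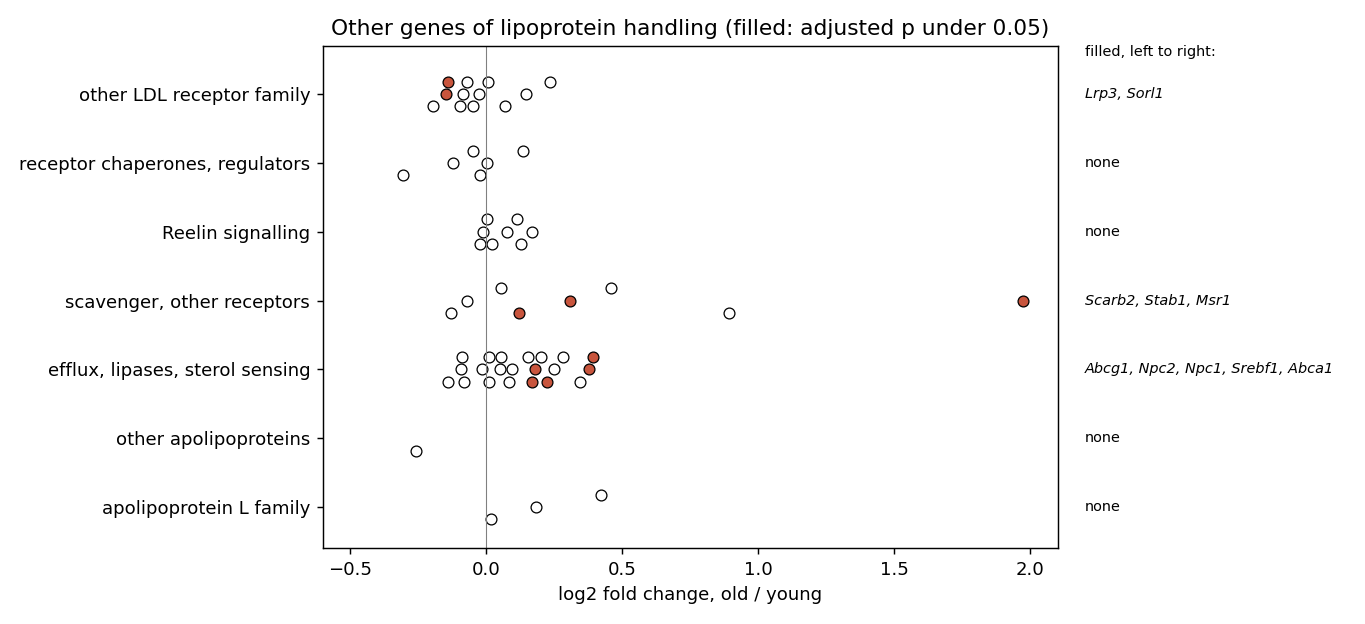
Log2 fold change between old (n = 4) and young (n = 5) mice of the 59 tested genes in 7 lists of lipoprotein handling. Each circle is a gene, filled where edgeR's adjusted p was under 0.05, and the filled genes are named at the right. The 5 filled efflux and sterol genes and the 3 filled scavenger receptors lie to the right of 0, and the 2 filled genes of the LDL receptor family to the left.

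Genes whose levels varied among mice most like the 4 genes that passed were identified by correlation of log2 CPM over 9 libraries. The mean of each age was subtracted first, and the description carries no test. For each gene the 3 highest were taken from 11212 or 11213 candidates, so selection alone can give high values. Values with 2 mice left out reuse libraries on which the genes were picked, and give no independent check. Apoe varied most like Mertk (Pearson r = 0.98, Spearman rho = 0.9), a phagocytic receptor, and the microglial genes Fcrls (r = 0.96, rho = 0.933) and C1qb (r = 0.953, rho = 0.883). Without young replicate 4 and old replicate 4, the mice farthest from the median of Apoe, r was 0.84, 0.749 and 0.589, so these likenesses rest in part on those 2 mice.

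Apod varied most like Ssbp3 (r = 0.981, rho = 1.0), Pigv (r = 0.976, rho = 0.967) and Rps6ka1 (r = 0.97, rho = 0.95), and r was at least 0.964 without its farthest mice, old replicates 1 and 5. Apoc1 varied most like Klc4 (r = 0.966, rho = 0.95), Rhou (r = 0.937, rho = 0.867) and Gm19439 (r = 0.931, rho = 0.917), with r of at least 0.882 without young replicates 1 and 4. Vldlr varied most like Kdr (r = 0.968, rho = 0.933), Ccnq (r = 0.961, rho = 0.967) and Vars2 (r = 0.946, rho = 0.95), also with r of at least 0.882 without young replicates 1 and 4. All points share their library, its depth and its dissection.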

How the data were processed

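RNA-seq of whole brain was analysed for 5 young and 4 old mice, grouped by the age in the labels. Per the study's methods, reads were trimmed with Trimmomatic, aligned to Ensembl GRCm38 with STAR and counted on exons with featureCounts, from uniquely mapped reads. The authors deposited raw counts per gene, a normalized signal (counts divided by 1 size factor per library, 17994 genes) and TPM values, whose gene lengths are not given in the sources used here. Each table had 1 column of per-sample values that matched no sample, and it was not used. Symbols and positions came from GENCODE M21 and 259 of 49315 IDs had none.

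Genes were filtered with filterByExpr (minimum count 10, minimum total 15), scaled with TMM and compared with edgeR's quasi-likelihood test (robust shrinkage) with Benjamini-Hochberg adjustment over 18492 genes. CPM are TMM-scaled, and intervals are at 95%. The robust option was chosen after the data had been seen. The 2 ratios were tested by exact permutation. The scripts were tested on simulated data. Alternatives were other scalings, no filter, the Wald test of DESeq2, limma on the log2 deposited normalized signal and on log2 TPM with pseudocounts of 1 and 0.1, a replicate block, stricter thresholds and leaving out each mouse. Software was edgeR 4.0.16, DESeq2 1.42.0 and limma 3.58.1 in R 4.3.3.

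The 9 genes and all lists were chosen with earlier results of these data known. All 9 genes were named with values, as was every gene of the 7 lists with an adjusted p under 0.05, with up to 3 further genes per list by mean level and others by range. Genes of like pattern were the 3 with the highest Pearson r and a mean log2 CPM of at least 3. Tomm40, Ctsa, Apoc2, Apoc4 and Gm44805 were named outside that rule, for their positions. So were Lrp5, for lying at the threshold, and Apol9a and Apol9b, for ranges that did not overlap. Ctsd, Gfap, Gpr17, Pdgfra, Cspg4 and Sox6 were named for their part in marker sums. A gene of these lists is not reported here and enters none of the list counts.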

Additional observations from a re-analysis of the deposited data

Results flagged for a closer look

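Clu in old replicate 3 lay apart from the other old mice. Its log2 CPM was 9.265, against 9.334 to 9.339 in the other 3, so that the gap to its nearest neighbour was 0.937 of the range of the old group. The other old mice were almost equal, and old replicate 3 lay within the range of the young mice (9.141 to 9.29). Of 22 combinations of a gene or ratio with an age, this was the 1 that stood out, and chance alone would give about 1.1.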

How the results depend on the processing

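Apod and Apoc1 kept their direction and an adjusted p under 0.05 in all 18 alternatives, with log2 fold changes of 1.1 to 1.34 and 0.711 to 1.17. Apoe (0.438 to 0.551) and Vldlr (-0.188 to -0.146) did so in all except the 2 TPM scales. On log2(TPM + 1) and log2(TPM + 0.1) the median of all genes shifted by -0.14 and -0.16 and 594 and 600 genes were called in place of 2031. There Apoe was at 0.313 and 0.313 (adjusted p = 0.491 and 0.476) and Vldlr at -0.318 and -0.33 (adjusted p = 0.391 and 0.389), the number of the 9 genes called was 2 and 2, and Clu (-0.052 and -0.0521) and Lrp1 (-0.148 and -0.149) turned negative. Of the 59 other lipoprotein genes, 1 or 2 rose and 0 fell on these scales in limma. The cause was not tested. DESeq2's Wald test called Clu (0.111, adjusted p = 0.0287). Requiring an absolute log2 fold change over 0.58 left 2 of the 9 genes. With each mouse left out, 4 to 5 of the 9 genes passed, Clu ranged from 0.0989 to 0.134, Lrp1 from -0.000137 to 0.0413 and Lrp8 from -0.0468 to 0.0273. The ratio of Vldlr to Lrp8 then differed by -0.184 to -0.103 (adjusted p 0.0286 to 0.0857) and that of Apoc1 to Apoe by 0.566 to 0.667 (adjusted p 0.0286 to 0.0571), where 4 against 4 mice cannot give an exact p below 0.0286. Deviations of same-numbered mice correlated at 0.170, -0.118, 0.088 and -0.024 for numbers 1, 3, 4 and 5. Pairs of unlike number lay at -0.218 to 0.164, so the pair of number 1 was the highest of all. The labels name no pairing, and whether same-numbered mice share more than a number was not tested. A replicate block over 8 libraries called 1811 genes and the same 4 of the 9 (Apod 1.26, adjusted p = 0.00551). Depth limits Apoc1, with at most 28 counts per library.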
